A study of Mus musculus with 10 samples.

Results

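Spindle assembly and cytokinesis genes were examined in sorted mouse lung endothelial cells. The set held 30 genes of the 55385 in the table, and it was chosen by function with this contrast already known, taking spindle, chromosomal passenger and cell division genes other than kinesins. By role, 13 encode microtubule-associated proteins of the spindle, 3 act at the spindle pole and centrosome, 3 form the SKA complex, 3 belong to the chromosomal passenger complex, and 8 act at the central spindle and in cytokinesis. Because the choice used the same contrast, the fold changes, adjusted p-values and counts of these genes are descriptions and support nothing by themselves. The animals were Cdh5.iCreERT2xTnfsf10Lox/Lox mice, in which both copies of Tnfsf10, the gene of the TNF-family death ligand TRAIL, are flanked by loxP sites. The 5 control libraries are Tnfsf10 L/L and Cdh5.Cre W/W, without the Cre transgene. The 5 libraries labelled EC-TRAIL KO, called KO-labelled below, come from the genotype with Cdh5.Cre Tg/W on the same Tnfsf10 L/L background, so that a tamoxifen-inducible Cre is driven by the endothelial Cdh5 promoter. According to the treatment protocol, animals were 8 to 14 weeks old and tamoxifen was injected at 1 mg per mouse and day for 5 or 10 days. It does not say which library had which schedule, or whether controls without Cre were injected. The label T10, shared by all sample titles, is not explained. Every library of one group carries the transgene and none of the other does, so the transgene and the deletion cannot be told apart. Whether each library is a separate mouse is not given in the labels, and p-values thus measure only the spread between these libraries. The series' design text counts 4 transgenic animals where the labels hold 5 libraries, and all 5 were used.

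In a dividing cell, the spindle is built from microtubules that are nucleated and focused by pole proteins and by factors released near chromosomes, and the SKA complex helps kinetochores hold on to microtubule ends. The chromosomal passenger complex carries Aurora B kinase from centromeres to the central spindle, where Prc1 bundles antiparallel microtubules and Racgap1 and Ect2 switch on RhoA at the cell equator. Anillin, citron kinase and Cep55 then act in furrow ingression and in the final cut. Most endothelial cells of the adult lung are quiescent. Many of these genes are transcribed mainly in late G2 and mitosis, while others, such as Stmn1 and Ckap5, also serve the microtubules of cells between divisions.

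Controls were sequenced to 34435835 to 56897822 expected counts and KO-labelled libraries to 29806083 to 34702571. Tnfsf10, which checks the labels, was at 298.2 to 373.6 CPM (counts scaled to a common library size) in controls. It was below every control in 4 KO-labelled libraries, at 198.9, 126.3, 169.3 and 80.99 CPM in replicates 1, 3, 4 and 5. The remaining one, replicate 2, was at 318 CPM within the control range. Counts over the whole gene may include exons outside the deleted part, so they cannot be read as the share of cells with a deletion. All 10 pan-endothelial markers had counts in every library. Their summed level was 10990 to 12690 CPM in controls and 10950 to 12750 CPM in the KO-labelled libraries, with Pecam1 at 2182 ± 186 and 2357 ± 179 CPM and Cdh5 at 3822 ± 292 and 4038 ± 147 CPM (SD, n = 5 each). Markers of other lung cells were present as well. The 11 alveolar epithelial markers summed to 8609 to 12830 CPM in controls and 7194 to 10360 CPM in the other group.

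Across the set, 19 genes were higher in the KO-labelled libraries by edgeR's quasi-likelihood test adjusted over all 17997 genes tested, none was lower, and 11 did not pass. Among all genes tested 0.439% were called higher and 0% lower. At an unadjusted p below 0.05 in the same edgeR test, 26 of the 30 were higher, as were 3.81% of all genes tested. The median log2 fold change of the 30 genes was 2.04, with a range of 0.19 to 2.57, against -0.0085 over all genes. In 23 genes all 5 KO-labelled libraries lay above all 5 controls, a pattern found in 1.38% of all genes, and in 0 genes did they all lie below, against 0.261% of all genes. All 30 passed the filter on low counts, and 29 had at least 4 controls at or above its level of 0.289 CPM. Ska1 was the exception and passed only with the values of the KO-labelled libraries. It is among the 23 genes without overlap. Where a mean CPM of at least 1 was required, Ska1 dropped out and 22 genes had no overlap. The 19 calls lie close under the threshold of 0.05, with 17 at an adjusted p of 0.0432, Arhgap11a at 0.0438 and Nusap1 at 0.0481. The 17 equal values are a tie made by the adjustment. Their unadjusted p in the same edgeR test ran from 9.17e-06 (Gtse1) to 0.000163 (Spag5). Leaving out any single control, or replicate 3 or 4 of the KO-labelled libraries, left 0 genes called, while without replicate 2, whose Tnfsf10 level was that of a control, 21 were called and the median log2 fold change was 1.63. RNA from a sorted population cannot tell more dividing cells from more RNA of these genes per cell. Nor can it show which of the cell types present the RNA of these genes came from.

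**Figure D1:**
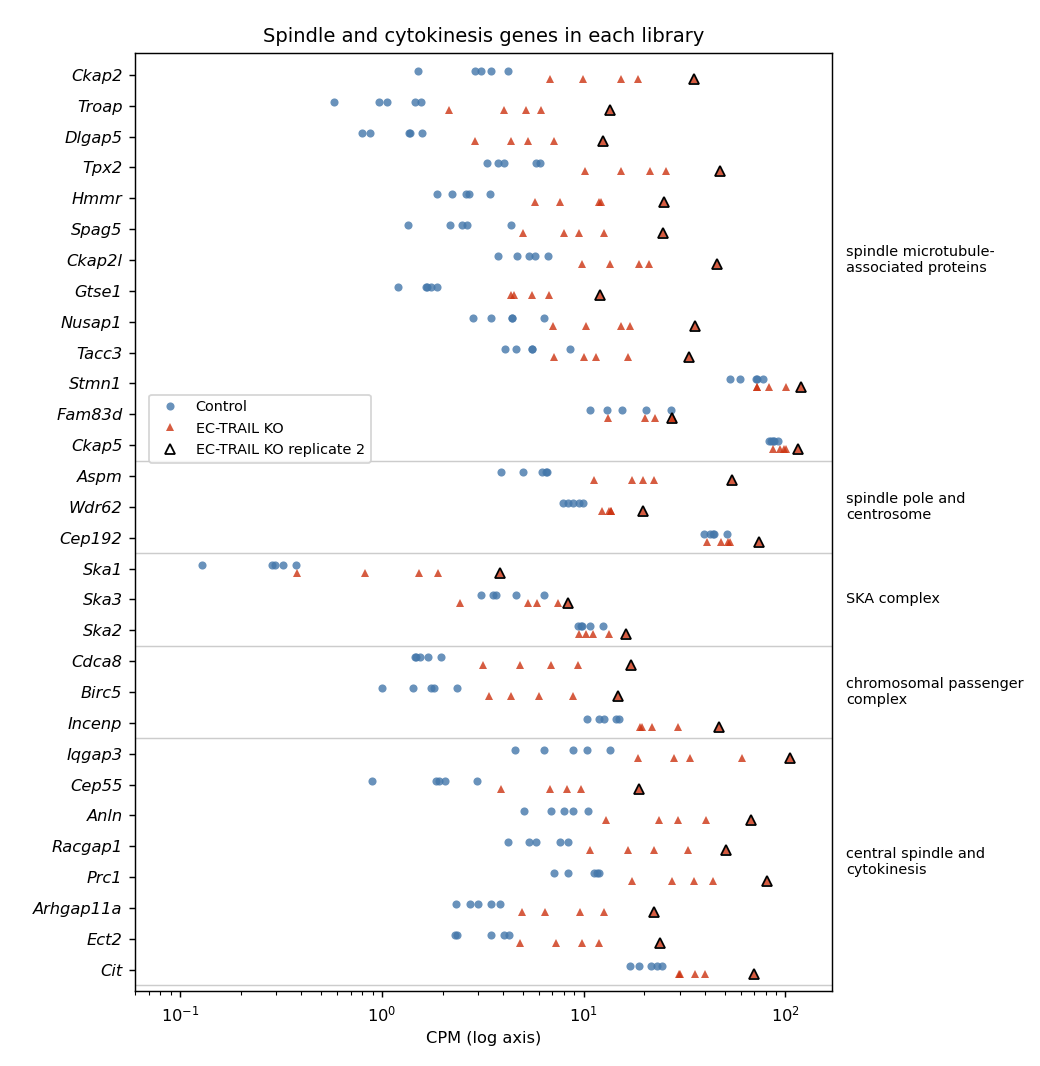
CPM of each of the 30 genes in each library, on a log axis, grouped by role. Circles are controls, triangles are KO-labelled libraries, and replicate 2 of those is outlined. In 23 genes every triangle lies to the right of every circle, and replicate 2 is rightmost in 29 genes.

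The genes fell into 3 ranges of fold change. In 20 genes the log2 fold change was 1.82 to 2.57, the groups did not overlap, and 18 were called. Another 4 genes (Wdr62, Cit, Incenp and Tacc3) had log2 fold changes of 0.70 to 1.47. The groups did not overlap in 3 of those, and 1, Wdr62, was called. The last 6 (Ckap5, Ska2, Cep192, Fam83d, Stmn1 and Ska3) had log2 fold changes of 0.19 to 0.46, overlapping groups and no call. The lowest call by fold change was Wdr62 at 1.63-fold, with a narrow spread, and the largest fold change without a call was Ska1 at 6.02-fold, with low and scattered counts.

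The promoters of these genes were also read. Late cell cycle genes are known for the cell cycle homology region (CHR) and for CCAAT boxes near the transcription start, the first bound by the DREAM and B-Myb complexes and the second by NF-Y. RefSeq promoter windows on GRCm38, from 250 bases before to 50 after the start, matched 24 of the 30 genes. The CHR core was searched as TTTGAA and TTTAAA and the CCAAT box as CCAAT, each on both strands, so that they also appear as TTCAAA and ATTGG. A CHR core was present in 18 of 24 windows (75.0%) and in 30.6% of the windows of all 27025 genes in the table. For a core in the last 150 bases of the window the shares were 66.7% and 14.7%. A CCAAT box was in 66.7% of the windows of these genes and in 41.1% of all windows, and 2 or more boxes were in 12 of 24 windows and in 13.3% of all. Both motifs stood in 54.2% and 12.2%. Of the windows of genes called higher 14 of 17 had a CHR core, and of the others 4 of 7. These shares are descriptions with no test. The genes were chosen for roles in division, so high shares could be found whatever the contrast, and a link to it was not tested. A match is not a bound site, and a window without a match says only that these letters are not in it.

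The next 6 stretches run from 150 bases before to 30 after the RefSeq start, 5′ to 3′ on the gene's own strand, with both motifs in capitals. The first 3 belong to genes of the highest range that carry both motifs, Nusap1 rose with neither motif in its window, and Ckap5 and Ska2 were not called although they carry CCAAT boxes.
Hmmr (chr11:40733408-40733587, minus strand): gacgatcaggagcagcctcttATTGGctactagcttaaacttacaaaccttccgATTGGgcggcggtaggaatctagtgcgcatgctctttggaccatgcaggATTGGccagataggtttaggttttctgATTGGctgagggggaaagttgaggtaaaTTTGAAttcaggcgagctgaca
Cdca8 (chr4:124936888-124937067, minus strand): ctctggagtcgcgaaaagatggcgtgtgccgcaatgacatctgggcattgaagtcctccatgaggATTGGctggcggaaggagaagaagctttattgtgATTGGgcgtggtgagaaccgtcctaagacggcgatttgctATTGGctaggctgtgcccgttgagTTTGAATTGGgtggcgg
Ckap2l (chr2:129297183-129297362, minus strand): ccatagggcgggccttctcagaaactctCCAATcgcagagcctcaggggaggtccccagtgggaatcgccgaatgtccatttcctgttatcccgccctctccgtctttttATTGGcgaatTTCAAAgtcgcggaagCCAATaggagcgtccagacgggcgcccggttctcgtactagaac
Nusap1 (chr2:119618148-119618327, plus strand): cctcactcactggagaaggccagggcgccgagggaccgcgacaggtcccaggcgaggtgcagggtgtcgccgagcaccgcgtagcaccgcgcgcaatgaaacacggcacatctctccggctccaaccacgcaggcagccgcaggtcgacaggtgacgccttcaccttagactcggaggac
Ckap5 (chr2:91526612-91526791, plus strand): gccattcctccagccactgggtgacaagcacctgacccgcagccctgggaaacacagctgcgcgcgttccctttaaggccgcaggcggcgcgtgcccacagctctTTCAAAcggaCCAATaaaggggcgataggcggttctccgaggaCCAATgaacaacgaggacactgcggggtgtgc
Ska2 (chr11:87109111-87109290, plus strand): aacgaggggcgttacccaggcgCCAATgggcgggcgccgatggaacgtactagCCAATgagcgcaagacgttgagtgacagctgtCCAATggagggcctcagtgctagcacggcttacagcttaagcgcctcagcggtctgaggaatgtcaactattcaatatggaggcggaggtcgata

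Hmmr shows 4 CCAAT boxes, all as ATTGG, upstream of 1 CHR core. Cdca8 has the same numbers of each, and its last CCAAT box shares 1 base with the CHR core. Ckap2l shows 3 CCAAT boxes and 1 CHR core between the second and the last of them, and a further CHR core lies in the rest of its window. Ckap5, whose level hardly differed between groups, shows 1 CHR core and 2 CCAAT boxes. Ska2 shows 3 CCAAT boxes and no CHR core. Windows with both motifs and windows lacking the CHR core thus occurred among genes that rose and among genes that did not pass.

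Among the spindle microtubule-associated proteins, 9 of 13 rose, with a median log2 fold change of 2.05 over the 13. Tpx2 activates Aurora A and promotes microtubule nucleation around chromosomes (ENSMUSG00000027469, GRCm38 chromosome 2, 152847964 to 152895321, plus strand). Its controls were at 3.75, 5.81, 3.33, 6.05 and 4.02 CPM in replicates 1 to 5. The KO-labelled libraries were at 10.12, 47.44, 21.38, 25.45 and 15.33 CPM. The lowest of these stood above the highest control, and replicate 2 stood well above the other 4. Means of 4.59 ± 1.25 and 23.95 ± 14.4 CPM (SD, n = 5 each) gave a 5.21-fold difference (log2 fold change 2.38, SE 0.36, edgeR adjusted p = 0.0432).

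Hmmr binds microtubules at the pole and works with Tpx2, and Dlgap5 stabilises the microtubules that attach to kinetochores. Controls held 2.23, 2.72, 1.88, 3.43 and 2.60 CPM of Hmmr, and the KO-labelled libraries 5.72, 25.11, 11.98, 12.2 and 7.63 CPM. For Dlgap5 the controls ran from 0.799 to 1.58 CPM and the other group from 2.89 to 12.54 CPM, without overlap. Hmmr was 4.87-fold and Dlgap5 5.37-fold higher (edgeR adjusted p = 0.0432 for both).

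Ckap2 and its relative Ckap2l, which associate with spindle microtubules, were 5.65-fold and 4.16-fold higher. Ckap2 had 3.08, 3.47, 1.52, 4.23 and 2.90 CPM in controls and 6.83, 35.27, 15.36, 18.54 and 9.89 CPM in the KO-labelled libraries. Ckap2l had 5.77, 6.64, 3.78, 5.33 and 4.67 CPM in controls and 9.80, 45.85, 18.84, 21.13 and 13.44 CPM in the other group. Replicates 1 to 5 of the KO-labelled libraries had the same order in both genes, with replicate 2 highest and replicate 1 lowest. Both had an edgeR adjusted p of 0.0432. Part of Ckap2l, 5.77% of its exon bases, lies on the strand opposite Gm14024.

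The other spindle genes that rose were Troap, at 0.577 to 1.56 CPM in controls and 2.16 to 13.54 CPM in the KO-labelled libraries (5.52-fold), and Spag5, the spindle protein astrin, at 1.35 to 4.38 and 4.99 to 24.78 CPM (4.60-fold). Gtse1, which binds microtubules and also restrains p53, was at 1.197 to 1.884 and 4.35 to 12.01 CPM (4.05-fold). Nusap1, which bundles microtubules near chromosomes, was at 2.84 to 6.40 and 7.06 to 35.43 CPM (3.95-fold). None of these ranges overlapped. Gtse1 had the smallest SE of these 4, 0.277 at a log2 fold change of 2.02. Nusap1 shares 4.24% of its exon bases with Oip5 on the opposite strand, a gene at 0.8 and 1.54 CPM in the groups.

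The remaining 4 of the 13 did not pass the test, and in each of them the groups overlapped. Tacc3, which holds kinetochore fibres together with clathrin and Ckap5, was at 5.54, 5.56, 4.06, 8.59 and 4.61 CPM in controls and 7.15, 33.11, 11.55, 16.68 and 10.09 CPM in the KO-labelled libraries. Its overlap came from a single pair of libraries, control replicate 4 above replicate 1 of the other group (log2 fold change 1.47, SE 0.367, edgeR adjusted p = 0.177). Tacc3 shares 8.14% of its exon bases with Tmem129 on the opposite strand, a gene at 16.3 and 17.0 CPM in the groups. Stmn1, the microtubule-destabilising protein stathmin, was at 53.09 to 77.44 CPM in controls and 72.22 to 120.0 CPM in the other group (1.34-fold, edgeR adjusted p = 0.65). Ckap5, the microtubule polymerase, was at 83.01 to 91.45 and 86.79 to 114.9 CPM (1.14-fold, edgeR adjusted p = 0.809).

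Fam83d, which brings a casein kinase to the spindle, had an order of libraries unlike that of the rest. Its controls were at 27.18, 15.41, 12.99, 10.71 and 20.41 CPM, and the KO-labelled libraries at 27.86, 27.3, 20.05, 13.16 and 22.47 CPM. Replicate 1 of the KO-labelled libraries was highest of the 10, the one gene of 30 in which replicate 2 was not. The groups overlapped almost fully, at means of 17.34 ± 6.57 and 22.17 ± 6.01 CPM (SD, n = 5 each, edgeR adjusted p = 0.997).

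**Figure D2:**
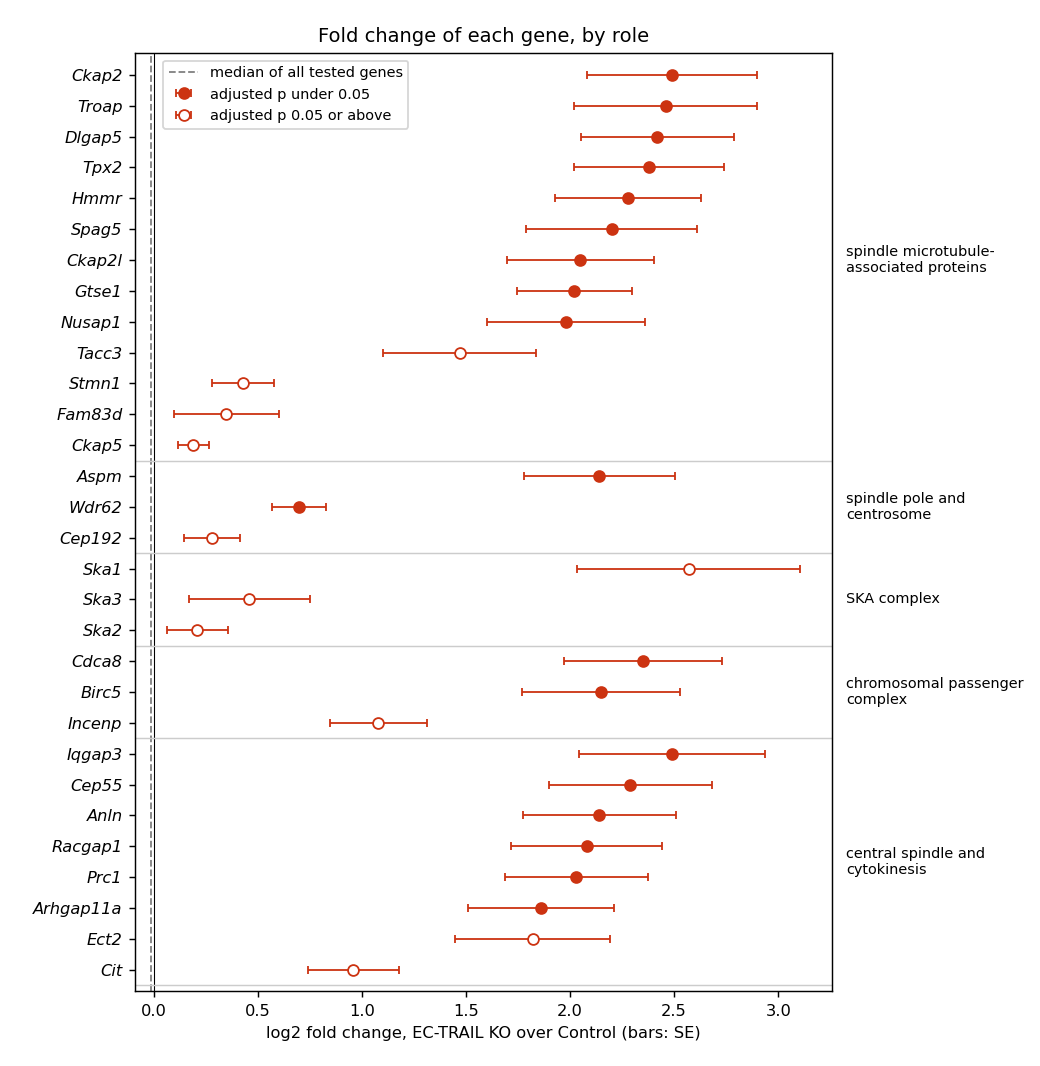
Log2 fold change of each gene, KO-labelled libraries over controls, by role, with bars of 1 SE. Filled points have an edgeR adjusted p under 0.05, and the dashed line is the median of all tested genes at -0.0085. All 30 points lie to the right of the dashed line, 20 of them between 1.82 and 2.57.

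At the spindle pole, Aspm and Wdr62 rose and Cep192 did not pass. Aspm focuses microtubules at the pole and, like Wdr62, is known for causing microcephaly when mutated. It was at 5.00, 6.49, 3.89, 6.59 and 6.24 CPM in controls and 11.2, 54.38, 22.27, 19.74 and 17.29 CPM in the KO-labelled libraries. Every one of these stood above every control, and replicate 2 stood far above the next. The gene was 4.43-fold higher (log2 fold change 2.14, SE 0.362, edgeR adjusted p = 0.0432).

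Wdr62, a pole protein that recruits mitotic kinases, was at 9.93, 9.43, 7.93, 8.85 and 8.34 CPM in controls and 13.59, 19.64, 12.36, 13.7 and 13.28 CPM in the KO-labelled libraries. The 4 libraries other than replicate 2 lay close to each other, all above the controls. The difference was 1.63-fold (log2 fold change 0.70, SE 0.129, edgeR adjusted p = 0.0432). Cep192, the scaffold that gathers pericentriolar material, had 39.46 to 51.51 CPM in controls and 41.02 to 74.02 CPM in the other group (1.21-fold, edgeR adjusted p = 0.997), with overlap.

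None of the 3 SKA genes passed the test, and their fold changes were far apart. Ska1, which carries the microtubule-binding part of the complex, was at 0.285, 0.374, 0.128, 0.325 and 0.296 CPM in controls and 0.379, 3.85, 1.53, 1.89 and 0.830 CPM in the KO-labelled libraries. These rest on 6 to 22 counts per control library and 13 to 116 per library of the other group. The groups did not overlap, but the lowest KO-labelled library was only 1.01 times the highest control. The log2 fold change was 2.57 (SE 0.536, edgeR adjusted p = 0.0707).

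Ska3, the subunit phosphorylated to bind the outer kinetochore, was at 3.56, 3.11, 3.70, 6.38 and 4.61 CPM in controls and 2.45, 8.33, 5.85, 7.42 and 5.31 CPM in the KO-labelled libraries. Replicate 1 of those was the lowest of all 10 libraries. Ska2 was at 9.41 to 12.51 CPM in controls and 9.44 to 16.12 CPM in the other group. Both had an edgeR adjusted p of 0.997, at 1.37-fold and 1.16-fold. Of the exon bases of Ska2, 10.1% lie opposite Gm11491, which did not pass the filter on low counts. Ska3 shares 2.88% of its exon bases with Sap18 on the opposite strand, a gene at 42.4 and 39.7 CPM in the groups.

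In the chromosomal passenger complex, Birc5 and Cdca8 rose and Incenp did not pass, while all 3 had groups that did not overlap. Birc5 encodes survivin, which reads a phosphorylated histone at the centromere. Its controls were at 1.75, 1.82, 1.00, 2.36 and 1.42 CPM and the KO-labelled libraries at 3.41, 14.73, 6.02, 8.90 and 4.35 CPM. Cdca8 encodes borealin, which joins survivin to the scaffold. Its controls were at 1.47, 1.70, 1.47, 1.97 and 1.54 CPM, close to each other, and the KO-labelled libraries at 3.18, 17.25, 6.91, 9.41 and 4.85 CPM. Birc5 was 4.48-fold and Cdca8 5.10-fold higher (edgeR adjusted p = 0.0432 for both). Cdca8 shares 4.48% of its exon bases with 9930104L06Rik on the opposite strand, a gene at 14.5 and 13.6 CPM in the groups.

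Incenp, the scaffold that activates Aurora B, was at 12.66, 14.49, 10.41, 14.94 and 11.95 CPM in controls and 19.52, 47.08, 21.84, 29.24 and 19.12 CPM in the KO-labelled libraries. It was 2.12-fold higher in the mean (log2 fold change 1.08, SE 0.231, edgeR adjusted p = 0.0773). Per kilobase of merged annotated exon, a scale that compares genes only roughly, mean control levels were 2.98 CPM for Incenp, 0.491 for Birc5 and 0.315 for Cdca8. In the KO-labelled libraries they were 6.32, 2.20 and 1.61 CPM per kilobase, so Incenp had the highest level of the 3 in both groups.

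Of the 8 central spindle and cytokinesis genes, 6 rose, 2 did not pass, and none had overlapping groups. Prc1, the bundler of antiparallel microtubules at the midzone (ENSMUSG00000038943, chromosome 7, 80294450 to 80316259, plus strand), was at 8.34, 11.59, 7.12, 11.88 and 11.27 CPM in controls. The KO-labelled libraries held 17.33, 81.08, 35.2, 43.76 and 27.25 CPM, 4.08-fold more in the mean (edgeR adjusted p = 0.0432). The exons of Prc1 lie opposite those of Rccd1 over 911 bases, 11.1% of its exon length, and Rccd1 was at 8.1 and 7.82 CPM in the groups.

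Racgap1 and Ect2 form the switch that activates RhoA, and they had log2 fold changes of 2.08 and 1.82. Racgap1, a component of centralspindlin, was at 5.82, 7.63, 4.23, 8.33 and 5.38 CPM in controls and 10.77, 50.89, 22.24, 32.76 and 16.5 CPM in the KO-labelled libraries (edgeR adjusted p = 0.0432). Ect2, the exchange factor for RhoA, was at 2.36, 4.03, 2.31, 4.25 and 3.46 CPM and 4.84, 23.99, 9.85, 11.87 and 7.30 CPM (edgeR adjusted p = 0.0651). Its groups did not overlap, yet it did not pass. Arhgap11a, a RhoA GTPase-activating protein, was 3.64-fold higher, at 2.33 to 3.86 CPM in controls and 4.93 to 22.33 CPM in the other group (edgeR adjusted p = 0.0438).

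Iqgap3, a scaffold of the actin cortex found mainly in proliferating cells, reached the highest value among the 8. Its controls were at 8.87, 10.43, 4.59, 13.47 and 6.33 CPM and the KO-labelled libraries at 18.67, 104.9, 33.79, 60.62 and 27.98 CPM. Its means of 8.74 ± 3.47 and 49.2 ± 34.8 CPM (SD, n = 5 each) gave a 5.63-fold difference (log2 fold change 2.49, SE 0.445, edgeR adjusted p = 0.0432). Anln, the anillin that links actin, myosin and septins in the furrow, was at 6.93, 8.84, 5.06, 10.54 and 8.02 CPM and 12.95, 67.85, 29.47, 40.27 and 23.5 CPM (4.42-fold). Cep55, which recruits the abscission machinery to the midbody, was at 0.897 to 2.95 CPM in controls and 3.91 to 18.71 CPM in the other group (4.89-fold). Anln and Cep55 also had an edgeR adjusted p of 0.0432.

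Cit, the citron kinase of the midbody, was at 21.64, 23.14, 18.87, 24.42 and 17.04 CPM in controls and 29.73, 70.14, 35.75, 39.7 and 29.91 CPM in the KO-labelled libraries. It was 1.95-fold higher in the mean and did not pass (log2 fold change 0.96, SE 0.217, edgeR adjusted p = 0.106). Without replicate 2 of those libraries the log2 fold change was 0.68, with an edgeR adjusted p of 0.0375. Incenp likewise went from 1.08 to 0.80, with an adjusted p of 0.0375, so both passed with a smaller fold change. Over the 20 alternative settings the adjusted p of Cit ran from 0.00157 to 0.463 and that of Incenp from 0.000498 to 0.358.

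**Figure D3:**
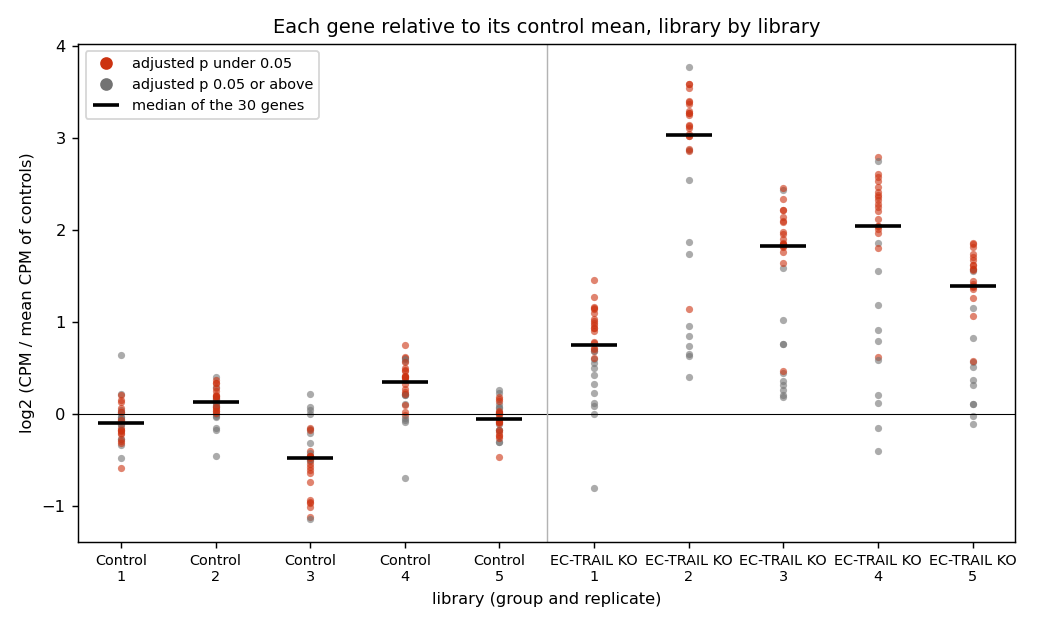
Log2 of each gene's CPM over its mean in controls, for all 30 genes in each library, with a bar at the median of each library and genes with an edgeR adjusted p under 0.05 in red. The medians run from -0.47 to 0.35 in controls and from 0.75 to 3.03 in the KO-labelled libraries.

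KO-labelled libraries differed from each other in a way that most of the genes shared. The median over the 30 genes, relative to the control mean, was 1.68-fold in replicate 1, 8.16-fold in replicate 2, 3.55-fold in replicate 3, 4.12-fold in replicate 4 and 2.61-fold in replicate 5. In controls the medians were 0.942-fold, 1.09-fold, 0.724-fold, 1.28-fold and 0.963-fold. The median of all tested genes lay between -0.022 and 0.002 on the log2 scale in each library. The order replicate 2, 4, 3, 5, 1 from high to low held in 21 of the 30 genes. Replicate 2 was highest of the 10 libraries in 29 genes, and replicate 1 was the lowest of its group in 23. Among controls, replicate 4 was highest in 21 genes and replicate 3 lowest in 21.

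Summed over the 30 genes, controls held 332.3 to 383.6 CPM. The KO-labelled libraries held 468.4, 1243, 650, 755.5 and 537.8 CPM in replicates 1 to 5, all above every control. Replicate 2, with the highest sum, also had the lowest summed markers of alveolar epithelium (7194 CPM), fibroblasts (483.7 CPM) and pericytes and smooth muscle (248.7 CPM) of all 10 libraries. It was the highest for pan-endothelial markers, at 12750 CPM. Control ranges were 8609 to 12830 CPM for the 11 alveolar markers, 564.5 to 778.2 CPM for the 9 fibroblast markers and 319.3 to 434.4 CPM for the 8 pericyte and smooth muscle markers, and none of these genes was at 0 in any library. The 12 leukocyte markers summed to 84.3 to 114.9 CPM in controls and 98.84 to 112.6 CPM in the other group, with Cd3e at 0 in some libraries. The part of these differences in the results was not tested. With the mean of the other cell types' markers as a covariate, 0 of the 30 genes were called. That fit was 1 of 11 with 0 called among the 20 alternative settings. Its median log2 fold change was 1.96, against 2.04 without the covariate.

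**Figure D4:**
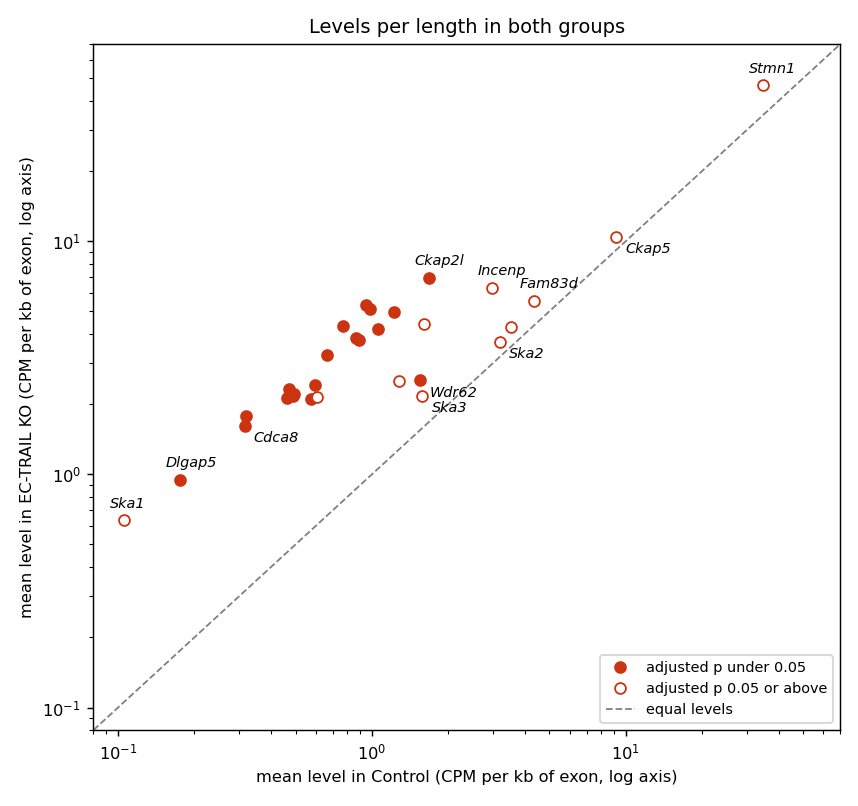
Mean CPM per kilobase of exon in controls (horizontal) and in KO-labelled libraries (vertical) for each gene, both on log axes, with the line of equal levels and filled points for an edgeR adjusted p under 0.05. Genes with the highest control levels, such as Stmn1 and Ckap5, sit near the line, and those with low control levels sit well above it.

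Levels per kilobase of exon set the genes in an order that went with their fold changes. In the 6 genes with the smallest fold changes the control level was 1.58 to 34.7 CPM per kilobase, and in the 20 with the largest it was 0.106 to 1.67. Fold change and control level share the control values, so this is a description only. Stmn1 was highest in both groups, at 34.7 and 46.6 CPM per kilobase, and Ska1 lowest, at 0.106 and 0.635. The largest difference between the group means was that of Stmn1, 11.9 CPM per kilobase, although its fold change was 1.34 and it did not pass. Ckap2l followed with 5.28, Ckap2 with 4.4 and Tpx2 with 4.14 CPM per kilobase. The SKA subunits, which form 1 complex, were at 0.106, 3.19 and 1.58 CPM per kilobase in controls for Ska1, Ska2 and Ska3, and at 0.635, 3.69 and 2.17 in the other group. Ska1 was thus the lowest subunit in both groups.

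Other machinery of division was counted from lists written with earlier results of these data known. Of 13 spindle and midzone kinesins, the motors that slide and depolymerise microtubules, 10 rose and 3 did not pass. Their median log2 fold change was 2.20, with a range of 0.40 to 2.52, and among all genes tested 0.439% were called higher. Of the 10 that rose, Kif23, the motor partner of Racgap1 in centralspindlin, was 4.70-fold higher. Kif2c was 5.68-fold, Kifc1 5.22-fold and Cenpe 4.61-fold higher (edgeR adjusted p = 0.0432 for all 4). Of 11 mitotic kinases and their partners 7 rose and 4 did not pass (median 1.90, range 0.83 to 2.46). Aurkb, the kinase of the chromosomal passenger complex, went from 1.55 to 8.56 CPM, 5.53-fold (edgeR adjusted p = 0.0432). Of its partners, Birc5 rose 4.48-fold and Cdca8 5.10-fold, while Incenp was 2.12-fold higher and did not pass (edgeR adjusted p = 0.0773). Ttk was 5.02-fold, Pbk 5.13-fold and Cdk1 5.47-fold higher (edgeR adjusted p = 0.0432 for each).

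Lists of gamma-tubulin, centrosome, microtubule end, contractile ring and abscission genes held few called genes or none. None of the 15 gamma-tubulin and augmin genes passed (median log2 fold change 0.04), with Tubgcp3 at 65.04 and 70.05 CPM and Tubgcp6 at 43.21 and 45.75 CPM in the groups. In the centrosome scaffold list 1 of 9 rose, Stil, which starts centriole duplication, by 5.83-fold (list median 0.31). Of 11 proteins of microtubule plus and minus ends 0 passed (median -0.00), among them Numa1 at 383.1 and 371.1 CPM and Dync1h1 at 1113 and 1197 CPM. Of 11 tested contractile ring and septin genes 0 passed (median 0.08). Rhoa, the target of Ect2 and Racgap1, was at 471.9 and 478.8 CPM and Myh9 at 1649 and 1926 CPM. The largest fold change of that list was in Diaph3, a formin, at 4.63 and 12.64 CPM (2.73-fold, edgeR adjusted p = 0.15). Of 12 abscission and ESCRT genes, which act after Cep55, 0 passed (median -0.01), with Pdcd6ip at 231.3 and 237.5 CPM and Chmp4b at 94.45 and 97.67 CPM. At an unadjusted p below 0.05 by edgeR, where 3.81% of all genes tested were higher, the centrosome scaffold list had 5 of 9 genes higher. The gamma-tubulin list had 1 of 15, the contractile ring list 2 of 11, and the microtubule end and abscission lists 0 of 11 and 0 of 12.

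**Figure D5:**
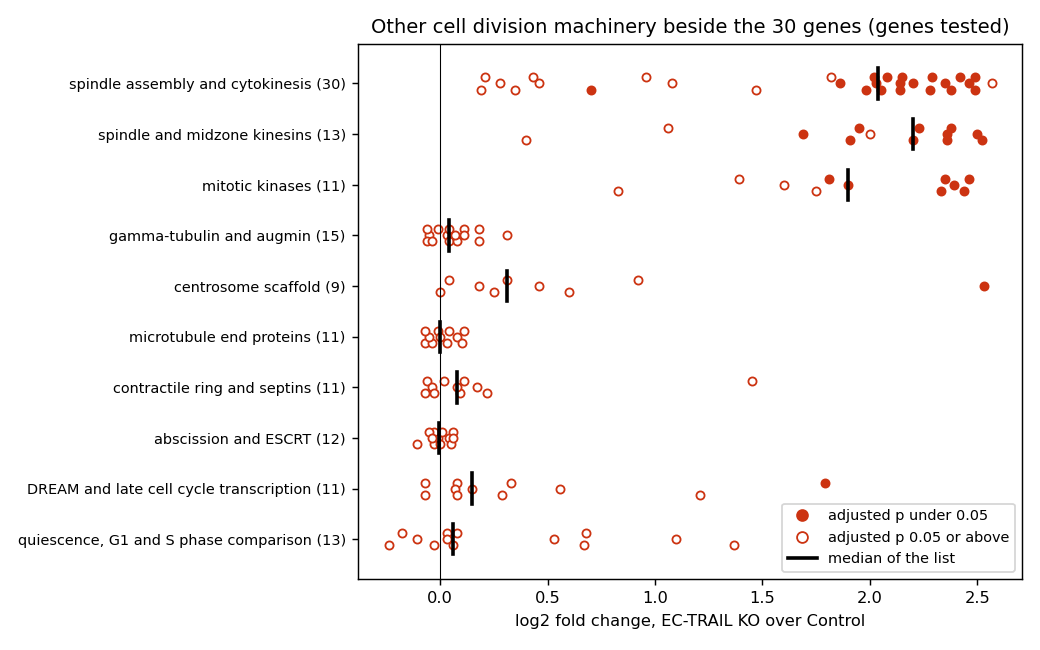
Log2 fold change of each tested gene in the 30 spindle and cytokinesis genes and in 9 other lists, with a bar at each median and filled points for an edgeR adjusted p under 0.05. Kinesins and mitotic kinases have medians of 2.20 and 1.90, and the gamma-tubulin, microtubule end, contractile ring and abscission lists have medians between -0.01 and 0.08.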

How the data were processed

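RNA of sorted lung endothelial cells was sequenced as poly-adenylated RNA with a stranded kit, per the labels' protocols. The authors deposited 1 table of expected counts by gene, not normalized, made with STAR 2.7.1a and RSEM 1.2.28 on GRCm38, per the submitters' processing notes. The strand setting is not given in the sources used here, so reads of overlapping opposite genes, present at 9 of the 30 genes, may not be separated. Symbols and exons came from the GENCODE annotation of GRCm38, which matched 55144 of 55385 identifiers.

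Expected counts were rounded and tested in R 4.3.3 with edgeR 4.0.16, keeping genes by filterByExpr (minimum count 10), scaling by TMM, with group as the only term and Benjamini-Hochberg adjustment over 17997 genes at 0.05. The SE of a log2 fold change was its absolute value divided by the square root of the test's F statistic. It is derived from the test and was not fitted separately. CPM used TMM library sizes, and levels per kilobase divided them by the merged exon length of the annotation. That length can exceed the length of the transcripts present, so ranks between genes are rough. Totals were 29806083 to 56897822 expected counts. No pair of libraries agreed within sampling noise (lowest chi-square per degree of freedom 20.6). Scripts were tested on simulated counts. Promoters came from RefSeq.

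The members and lists were chosen with earlier results of these data known. Named are all 30 members, up to 4 called genes of each list by smallest p or else the 2 with the highest mean CPM, and 2 genes per marker list, of which those of other cell types are given as sums. The platelet and erythroid list is not reported here. Cd3e, Mcm5, Ccne1, Ccnd1, Pcna, Mybl2, Diaph3 and the genes that overlap members were named after their values were seen. Alternatives were other scalings, filters and tools (DESeq2 1.42.0, limma 3.58.1), a replicate block, a marker covariate and each library left out.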

Additional observations from a re-analysis of the deposited data

Results flagged for a closer look

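In 3 of 62 groups of 5 libraries checked (each gene in each group, and the summed levels), 1 library stood apart from the others by Dixon's criterion at its 95% level of 0.71. Chance alone does this in about 1 in 20 groups. All 3 were replicate 2 of the KO-labelled libraries, the library with a Tnfsf10 level in the control range. Aspm was at 54.38 CPM there, with the next library at 22.27 CPM, a gap of 0.744 of the range. Wdr62 was at 19.64 CPM, with the next at 13.7 CPM (0.815 of the range). Cit was at 70.14 CPM, with the next at 39.7 CPM (0.753 of the range). Without that library Aspm, Wdr62 and Cit had log2 fold changes of 1.64, 0.57 and 0.68, with edgeR adjusted p of 0.0148, 0.0302 and 0.0375.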

How the results depend on the processing

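The 30 genes gave no lower call and no reversed fold change in any of 20 alternative settings. The number called higher, 19, was not stable. It was 19 with RLE factors, 23 with no filter, 24 with DESeq2 and 18 when a mean CPM of at least 1 was required. It was 0 with library size only, with limma-voom, with limma-voom and quality weights, and with the marker covariate. With 1 library left out it ran from 0 to 23, at 0 in 7 of 10 cases, each control and replicates 3 and 4 of the KO-labelled libraries, and at 23, 21 and 21 without replicates 1, 2 and 5 of those. In the 11 settings with 0 called, the lowest adjusted p was 0.0501 to 0.243, the 19 genes had log2 fold changes of 0.61 to 2.69 (0.70 to 2.49 with all libraries), and over all settings 25 to 28 genes were higher at an unadjusted p below 0.05 (3.81% of all genes tested with all libraries). The cause was not tested. Over all genes tested, 79 were called, against 2 in the settings with 0 members called, except 1 with the marker covariate, and against 141 with no filter, 208 with DESeq2, 146 with the replicate block and 154 without replicate 1 of the KO-labelled libraries. The median log2 fold change of the 30 genes stayed between 1.63 and 2.23.

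Same-numbered libraries of the groups deviated together with correlations of 0.227, 0.0679, 0.21, 0.433 and 0.114, and 8 of 10 libraries correlated best with their own number. That is a hint of pairing from the data, not from the design: 1 value was below 0.1, no label ties a number to a shared animal or day, and the numbers were not used as pairs. With the replicate number as a block 22 of the 30 genes were called, the 19 and also Ect2, Incenp and Cit. edgeR's legacy estimation, planned as an alternative, proved to be the installed default. The newer estimation, tried instead after seeing the data, called 19. Depth limits Ska1 most, with 6 to 22 counts per control library.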

Other observations

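Regulators of late cell cycle transcription were read from 1 list. Of 11 genes of the DREAM complex and its partners 1 rose, Foxm1, the activator of G2 and mitotic genes, from 8.57 ± 1.61 to 29.65 ± 17.0 CPM (SD, n = 5 each, 3.46-fold, edgeR adjusted p = 0.0432). Mybl2, which joins the complex in dividing cells, was at 2.34 ± 0.687 and 5.42 ± 2.33 CPM (edgeR adjusted p = 0.135), with groups that did not overlap. Over the list, the median was 0.15 on the log2 scale. Among all genes tested 0.439% were called higher. At an unadjusted p below 0.05 by edgeR, 5 of the 11 were higher, against 3.81% of all genes tested. In 3 of the 11 all KO-labelled libraries lay above all controls, a pattern found in 1.38% of all genes.

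Of 13 genes tied to quiescence or to entry into S phase 0 passed edgeR's test (median log2 fold change 0.06), and 5 were higher at an unadjusted p below 0.05, against 3.81% of all genes tested. Klf2 and Klf4, transcription factors of resting endothelium, were at 626.5 ± 207 and 1308 ± 284 CPM in controls and at 655.2 ± 163 and 1335 ± 143 CPM in the KO-labelled libraries (SD, n = 5 each). The median covers values that lie apart, near 0 for most of the quiescence genes and higher for several genes of the G1 and S phases. Mcm5, a subunit of the replicative helicase, had a log2 fold change of 1.10 (edgeR adjusted p = 0.223), Ccne1, cyclin E1, 1.37 (edgeR adjusted p = 0.199), and Ccnd1, cyclin D1, 0.53 (edgeR adjusted p = 0.443). Pcna, an S phase gene of the same list, hardly differed, at 74.21 and 75.91 CPM (log2 fold change 0.03, edgeR adjusted p = 0.997).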
